A study of Mus musculus with 10 samples.

Results

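C-type lectin receptors were followed in RNA sequencing of whole mouse lung, as the 40 protein-coding genes of 53342 in the table whose symbol starts with Clec and a digit or with Cd209, or is Mrc1, Mrc2 or Mgl2. The study has 10 libraries in 3 groups. The SF-3-030+HDM group (n = 3) received the compound SF-3-030 at 10 mg/kg through the nose 30 min ahead of each dose of house dust mite allergen (HDM). The HDM group (n = 3) received the allergen, on 5 days of each of 3 weeks, and its treatment label reads DMSO+HDM. The PBS group (n = 4) is the control labelled PBS, without DMSO named in that label. Allergen and DMSO thus cannot be told apart in HDM against PBS. All mice are labelled female BALB/c, aged 12 weeks, and no group of these received the compound without allergen. According to the series title, the compound is meant to block some but not all actions of ERK1 and ERK2, kinases of growth factor signalling, in a model of allergic asthma. The comparisons ask which receptor genes differ in lungs exposed to the allergen, and which differ when the compound is added. The name rule also matched 3 genes of another annotated type, which were not counted as members: Clec2f and Clec2j, listed as pseudogenes, and Clec7a, listed as a polymorphic pseudogene.

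C-type lectins are proteins that share a calcium-dependent carbohydrate-recognition fold, although some members bind proteins or lipids with it. On macrophages, dendritic cells and other myeloid cells they bind sugars of microbes, allergens and dying cells. Several activating members signal through the adaptor chain encoded by Fcer1g, or through the adaptor encoded by Tyrobp, to the kinase Syk and the scaffold Card9. Inhibitory members carry a tyrosine motif that recruits phosphatases such as the product of Ptpn6. Other members take up glycoproteins (Mrc1, Clec10a, Mgl2), serve as ligands of natural killer cell receptors (Clec2d) or sit on platelets and vessels (Clec1b, Clec14a). House dust mite extract contains glycans that mouse Dectin-2, encoded by Clec4n, is known to bind.

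Libraries held 38667118 to 59083942 summed expected counts. Levels below are in CPM, counts scaled to a library total of 1000000, and are given per library or as mean ± SD. Changes are log2 fold changes ± SE from edgeR's quasi-likelihood test of the rounded counts, and a gene was called when its p, adjusted over the 26235 genes tested, was under 0.05. Nothing in the labels says that replicates of a group are different animals, so p-values describe the spread between these samples only. The 3 SF-3-030+HDM libraries stood apart from the other 7 at genes that differ between inbred strains: H2-Ea-ps was at 331 to 432 CPM there and at 0.107 to 0.953 CPM elsewhere, while Trim12a was at 0.199 to 0.363 CPM there and at 18.7 to 30.6 CPM elsewhere. The compound and this separation cannot be told apart in any comparison that uses those libraries. The Y-linked gene Ddx3y was at 20.4 to 31.5 CPM in HDM 2, HDM 3 and PBS 2, against at most 0.576 CPM in the other libraries, although all are labelled female. Summed olfactory and vomeronasal receptor genes, a measure of background, were highest in HDM 3 (230 CPM), PBS 1 (469 CPM) and PBS 4 (308 CPM) and were at 16.01 to 32.6 CPM in SF-3-030+HDM. Lung epithelial markers summed to 41810 to 43920 CPM in SF-3-030+HDM, 45080 to 62800 CPM in HDM and 69450 to 75890 CPM in PBS libraries. In SF-3-030+HDM against PBS 4 of 5 epithelial markers fell, 80% beside 18.1% of all tested genes. The part of this in the receptor results was not tested. In bulk tissue, fewer cells of a type and less RNA per cell cannot be told apart.

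Of the 40 members, 31 averaged at least 1 CPM in a group and 9 did not. After the filter on low counts, 35 members were tested. Clec18a, Clec2e, Clec2h, Clec3a and Clec4f were too low to test, and among them Clec2h, Clec3a and Clec4f had no count in any SF-3-030+HDM library. A sum of 0 counts over that group allows a level of up to 0.0174 CPM, as a limit for counting error only. In HDM libraries these 3 genes were at 0 to 0.0767 CPM, and in PBS libraries at 0 to 0.362 CPM. The untested Clec18a and Clec2e reached at most 0.169 CPM in SF-3-030+HDM, 0.264 CPM in HDM and 0.353 CPM in PBS libraries. Most members lie in gene clusters, with 22 on chromosome 6 and 10 on chromosome 8. Members summed to 985 to 1105 CPM in SF-3-030+HDM, 787 to 1003 CPM in HDM and 897 to 970 CPM in PBS libraries, so the ranges of the 3 groups overlapped or lay close together while single members moved in both directions.

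Compared per kilobase of exon, the most abundant members were Clec3b (tetranectin), Clec2d and Clec14a. Clec3b averaged 100 CPM per kilobase in SF-3-030+HDM, 71.7 in HDM and 101 in PBS. Clec2d averaged 68.0, 47.8 and 81.5 CPM per kilobase in those groups, and Clec14a 46.8, 45.9 and 63.5. These 3 genes stood above all others of the set in every group. Mrc1, the mannose receptor of macrophages, averaged 22.9 CPM per kilobase in SF-3-030+HDM, 14.2 in HDM and 6.87 in PBS. Clec4n averaged 6.75, 21.4 and 7.98 CPM per kilobase in the same order of groups.

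**Figure D1:**
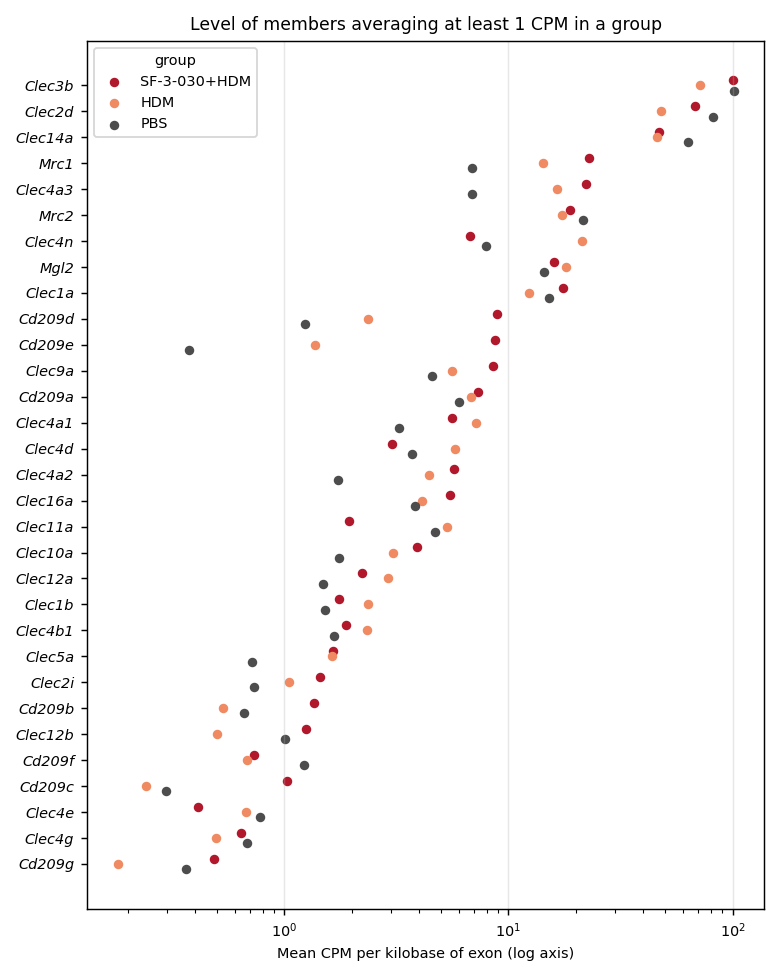
Mean level of the 31 members averaging at least 1 CPM in a group, in CPM per kilobase of exon on a log axis, with 1 point per group (SF-3-030+HDM n = 3, HDM n = 3, PBS n = 4). Clec3b, Clec2d and Clec14a lie to the right of all other members, and Cd209d and Cd209e have their SF-3-030+HDM point far to the right of the PBS point.

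In HDM against PBS, 5 members, all receptors of myeloid cells, rose: Clec4a1, Clec4a2, Clec4a3, Clec5a and Clec12a. These are 14.3% of the 35 tested members, and the share of all tested genes called higher was 2.32%. One member, Clec2d, fell, which is 2.86% of those tested, against 0.294% of all tested genes called lower. The median log2 fold change was 0.55 over tested members and -0.09 over all tested genes. RLE or upper-quartile scaling kept the number of members called higher at 5 and gave 0 lower. Without the 3 libraries with Y-linked expression, which leaves a single HDM library whose spread is assumed to be that of the other groups, 0 members were called higher and 0 lower, and 241 of all tested genes were called higher in place of 608. Without the 3 libraries with the most background, 2 were called higher and 0 lower.

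Few members differed between lungs with and without SF-3-030 on top of the allergen. In SF-3-030+HDM against HDM, Cd209d and Cd209e rose and Clec11a and Clec4n fell. Each pair is 5.71% of the tested members, beside 3.43% of all tested genes called higher and 6.06% called lower. The share of members called lower was thus close to that of all genes. The median log2 fold change was 0.35 over tested members and -0.03 over all tested genes. RLE and upper-quartile scaling each gave 1 member higher and 2 lower. Without the libraries with Y-linked expression, 0 were called higher and 1 (Clec4n) lower, and without those with the most background, 2 were called higher and 4 lower.

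SF-3-030+HDM against PBS, a comparison that shares its libraries with the other 2, had the most calls. In it 11 members rose, 31.4% of those tested, beside 11.8% of all tested genes: Cd209d, Cd209e, Clec10a, Clec12a, Clec16a, Clec2l, Clec4a1, Clec4a2, Clec4a3, Clec5a and Mrc1. Clec11a alone fell, 2.86% of the tested members beside 18.1% of all tested genes. The median was 0.52 over tested members and -0.105 over all tested genes. Upper-quartile scaling, which moved the median of all tested genes to -0.31, gave 7 members higher and 2 lower. Without the libraries with Y-linked expression 10 were called higher and 1 lower, and without those with the most background 8 and 3.

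**Figure D2:**
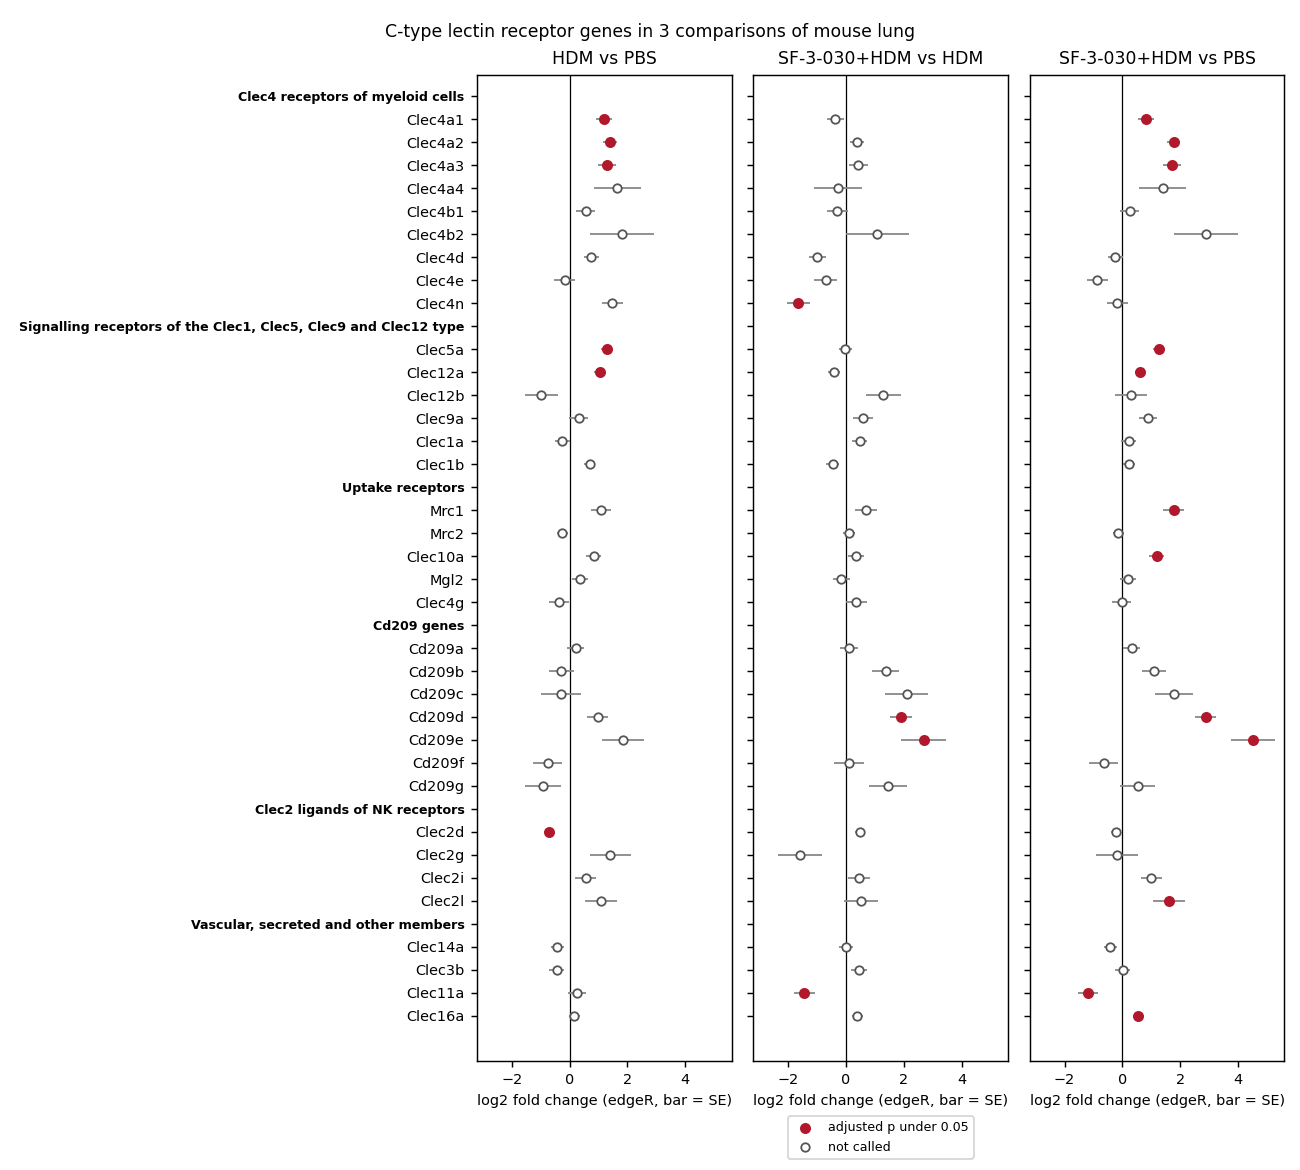
Log2 fold change with its SE for the 35 tested members, grouped by role, for the 3 comparisons named above the panels. Filled points are members with an edgeR adjusted p under 0.05. The calls in HDM against PBS lie among the Clec4 genes, Clec5a, Clec12a and Clec2d, and Cd209d and Cd209e are filled in both comparisons of SF-3-030+HDM.

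The Clec4a genes encode dendritic cell immunoreceptors, and Clec4a2 is an inhibitory one with a tyrosine motif. Clec4a2 (ENSMUSG00000030148, chr6:123106428-123143999 on GRCm38, plus strand) had 13.4, 17.0 and 19.6 CPM in SF-3-030+HDM lungs, 13.1, 10.3 and 15.2 CPM in HDM lungs and 6.67, 3.50, 5.78 and 4.36 CPM in PBS lungs. Every library of both exposed groups was above every PBS library, and the exposed groups overlapped. Clec4a2 rose by 1.40 ± 0.23 in HDM against PBS (edgeR adjusted p = 0.00754) and by 1.77 ± 0.23 in SF-3-030+HDM against PBS (edgeR adjusted p = 0.000311). Leaving out any single library kept the call in HDM against PBS (edgeR adjusted p from 0.00809 to 0.0316), and leaving out the Y-linked or the background set of libraries ended it, with log2 fold changes of 1.22 and 1.36.

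Its neighbours Clec4a1 and Clec4a3 were also higher in exposed lungs, with calls nearer the threshold. Clec4a3 (ENSMUSG00000043832, chr6:122952515-122969875, plus strand) had 25.9, 22.9 and 39.3 CPM in SF-3-030+HDM, 24.4, 21.1 and 20.1 CPM in HDM and 5.87, 7.02, 11.9 and 11.6 CPM in PBS lungs. Clec4a1 (ENSMUSG00000049037, chr6:122921848-122934619, plus strand) had 7.37, 7.39 and 11.3 CPM in SF-3-030+HDM, 10.5, 10.4 and 12.7 CPM in HDM and 3.63, 7.06, 4.23 and 5.24 CPM in PBS lungs. All exposed libraries again exceeded all PBS libraries for both genes. In HDM against PBS Clec4a3 rose by 1.29 ± 0.31 (edgeR adjusted p = 0.0494) and Clec4a1 by 1.19 ± 0.28 (edgeR adjusted p = 0.0491), both just inside the threshold. Leaving out any HDM library, PBS 4, SF-3-030+HDM 1 or SF-3-030+HDM 2 ended both calls, as did leaving out PBS 2 for Clec4a3 and PBS 1 or PBS 3 for Clec4a1, with adjusted p up to 0.185 and 0.178. Clec4a3 rose in SF-3-030+HDM against PBS by 1.72 ± 0.31 (edgeR adjusted p = 0.00249), a call that held without any single library, and Clec4a1 by 0.82 ± 0.28 (edgeR adjusted p = 0.0466). The call of Clec4a1 there was lost when any one library other than PBS 2 was left out, with an adjusted p of up to 0.218. Its other relatives were low: Clec4b1, which encodes an activating partner of the Fcer1g chain, averaged 1.48 ± 0.413 CPM in SF-3-030+HDM, 1.83 ± 0.494 CPM in HDM and 1.30 ± 0.389 CPM in PBS, and Clec4a4 and Clec4b2 were at 0.324 CPM or less in each library. The coding sequences of Clec4a2 and Clec4a4 are 85.7% identical with a longest identical run of 163 bases, so their counts are uncertain where reads were shared.

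The activating Clec4 receptors followed. Clec4n (ENSMUSG00000023349, chr6:123229843-123247021, plus strand), encoding Dectin-2, had 6.94, 6.82 and 15.01 CPM in SF-3-030+HDM lungs, 43.2, 29.6 and 18.3 CPM in HDM lungs and 12.7, 6.95, 13.3 and 12.4 CPM in PBS lungs. The HDM libraries spread widely and lay above all libraries of both other groups. Clec4n fell by 1.65 ± 0.41 in SF-3-030+HDM against HDM (edgeR adjusted p = 0.0318), while its log2 fold change of 1.48 ± 0.37 in HDM against PBS missed the threshold (edgeR adjusted p = 0.0617) and passed it in 6 of 19 alternatives, among them DESeq2. The fall lost its call without HDM 1, HDM 2, SF-3-030+HDM 1 or SF-3-030+HDM 2 (edgeR adjusted p up to 0.122). Without the Y-linked libraries it was -2.08 (edgeR adjusted p = 0.0339). Clec4d and Clec4e encode receptors for mycobacterial glycolipid. Clec4d averaged 4.81 ± 0.508 CPM in SF-3-030+HDM, 9.27 ± 1.94 CPM in HDM and 5.92 ± 2.55 CPM in PBS, with a log2 fold change of -0.99 ± 0.29 in SF-3-030+HDM against HDM (edgeR adjusted p = 0.051), which passed in 6 of 19 alternatives. Clec4e averaged 2.05 ± 0.268, 3.34 ± 0.97 and 3.86 ± 1.93 CPM in the same groups and passed in no comparison. The 9 Clec4a, Clec4b, Clec4d, Clec4e and Clec4n genes together summed to 62.3 to 93.8 CPM in SF-3-030+HDM, 81.6 to 105 CPM in HDM and 37.6 to 44.3 CPM in PBS libraries.

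Clec5a and Clec12a were higher in both exposed groups than in PBS. Clec5a pairs with the adaptors encoded by Tyrobp and Hcst on monocytes, macrophages and neutrophils. Clec5a (ENSMUSG00000029915, chr6:40574894-40585821, minus strand) had 6.53, 6.38 and 6.09 CPM in SF-3-030+HDM, 5.84, 7.32 and 5.70 CPM in HDM and 3.75, 2.65, 2.05 and 2.56 CPM in PBS lungs. Both exposed groups overlapped each other and lay wholly above PBS. Clec5a rose by 1.28 ± 0.21 in HDM against PBS (edgeR adjusted p = 0.00709) and by 1.25 ± 0.21 in SF-3-030+HDM against PBS (edgeR adjusted p = 0.00145), and both calls held without any single library. Its log2 fold change in SF-3-030+HDM against HDM was -0.02 ± 0.22. Without the Y-linked libraries the change in HDM against PBS was 1.08 and no longer called.

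Clec12a (ENSMUSG00000053063, chr6:129342691-129365303, plus strand) encodes an inhibitory receptor for uric acid crystals on myeloid cells. It had 12.8, 11.8 and 12.2 CPM in SF-3-030+HDM lungs, 18.6, 16.03 and 13.6 CPM in HDM lungs and 11.3, 8.60, 7.29 and 5.74 CPM in PBS lungs, so the 3 groups did not overlap. It rose by 1.03 ± 0.20 in HDM against PBS (edgeR adjusted p = 0.0164) and by 0.62 ± 0.20 in SF-3-030+HDM against PBS (edgeR adjusted p = 0.0355), and its log2 fold change in SF-3-030+HDM against HDM was -0.41 ± 0.21 (edgeR adjusted p = 0.223). Leaving out PBS 3, HDM 1 or HDM 2 ended the call in HDM against PBS (edgeR adjusted p up to 0.0953). Leaving out PBS 3, PBS 4, HDM 2 or any SF-3-030+HDM library ended the one in SF-3-030+HDM against PBS, with an adjusted p of up to 0.1002. Clec12b, another inhibitory receptor, averaged 2.02 ± 1.17 CPM in SF-3-030+HDM, 0.814 ± 0.608 CPM in HDM and 1.63 ± 0.777 CPM in PBS, and the groups overlapped.

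**Figure D3:**
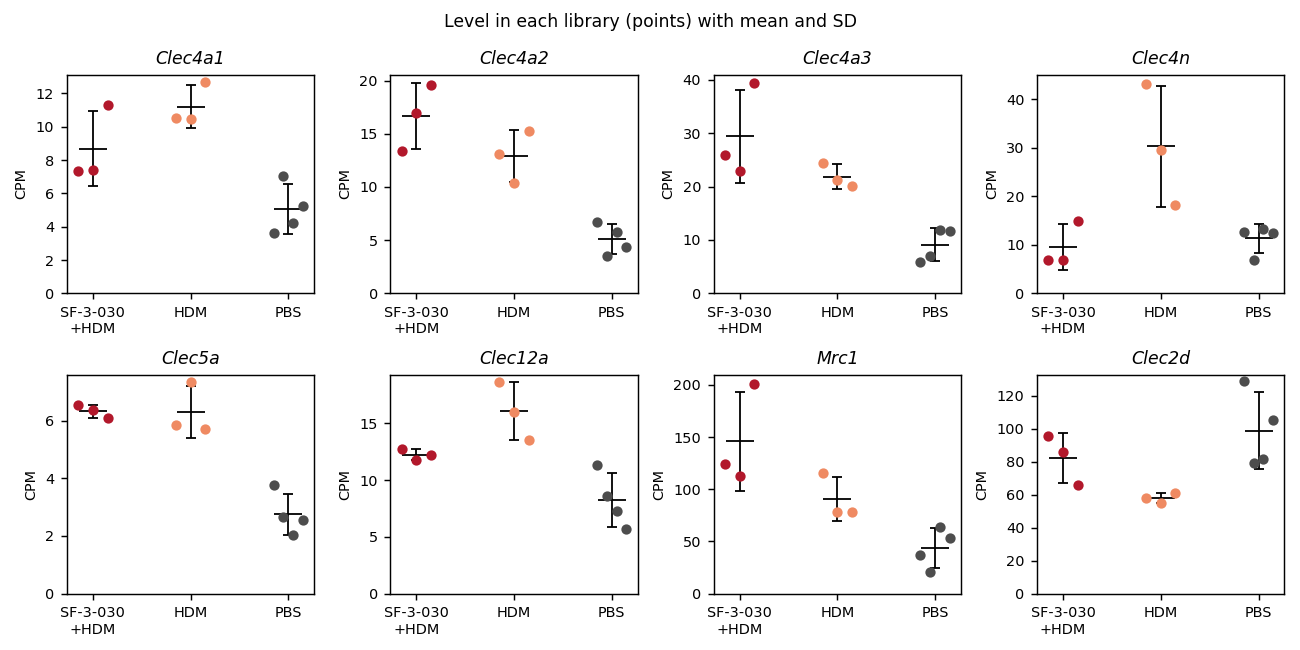
CPM of Clec4a1, Clec4a2, Clec4a3, Clec4n, Clec5a, Clec12a, Mrc1 and Clec2d in each library (points), with the mean and SD of each group (SF-3-030+HDM n = 3, HDM n = 3, PBS n = 4). Clec4n is highest in the 3 HDM libraries (18.3 to 43.2 CPM), Mrc1 is at 113 to 201 CPM in SF-3-030+HDM and overlaps HDM at one library, and Clec2d is lowest in HDM (54.8 to 60.9 CPM).

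The 100 bases before the RefSeq start are shown for 6 receptor genes. These are the 5 that rose in both HDM and SF-3-030+HDM against PBS, and Mrc1, called in SF-3-030+HDM against PBS alone. For Clec4a2 and Clec12a that start lies inside the gene range given above, downstream of the start of the range. RefSeq has 2 windows for Clec4a3: the downstream one is shown because it holds a match, and the other, at chr6:122952415-122952514, holds none of the motifs. They come from RefSeq (GRCm38.p6), read 5′ to 3′ on the strand of the gene, and capitals mark matches on either strand to any of 3 motifs: the PU.1 core GAGGAA, the AP-1 site TGANTCA and the STAT6 site TTCNNNNGAA.
Clec5a, chr6:40585806-40585905, minus strand: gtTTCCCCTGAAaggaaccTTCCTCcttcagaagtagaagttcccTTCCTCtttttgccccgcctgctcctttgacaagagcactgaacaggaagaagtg
Clec12a, chr6:129350144-129350243, plus strand: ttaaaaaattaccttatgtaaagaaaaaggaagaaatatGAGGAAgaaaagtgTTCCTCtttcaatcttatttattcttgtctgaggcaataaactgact
Clec4a1, chr6:122921748-122921847, plus strand: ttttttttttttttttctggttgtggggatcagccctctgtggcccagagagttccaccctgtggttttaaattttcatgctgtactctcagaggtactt
Clec4a2, chr6:123122590-123122689, plus strand: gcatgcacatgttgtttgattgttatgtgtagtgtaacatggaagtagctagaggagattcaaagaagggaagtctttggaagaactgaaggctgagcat
Clec4a3, chr6:122952544-122952643, plus strand: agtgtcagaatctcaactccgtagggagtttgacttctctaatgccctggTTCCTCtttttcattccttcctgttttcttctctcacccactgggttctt
Mrc1, chr2:14229314-14229413, plus strand: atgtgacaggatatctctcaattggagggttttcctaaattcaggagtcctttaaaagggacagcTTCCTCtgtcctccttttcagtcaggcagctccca

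PU.1 is a transcription factor of myeloid cells. Within 250 bases before the start, its core was found in 16 of 35 windows of members, which belong to the 33 members with an entry, a share of 45.7%, and in 23.3% of all 32851 windows. The AP-1 site, bound by factors downstream of ERK, was in 7 member windows (20%) and in 6.75% of all windows. Those windows belong to Cd209f, Cd209g, Clec12a, Clec18a, Clec2e, Clec2g and Clec2h. Only Clec12a among these genes was called in a comparison, and Clec18a, Clec2e and Clec2h were too low to test. Cd209f and Cd209g carry the site in the same surrounding letters. The STAT6 site was in 4 member windows (11.4%) and in 5.85% of all windows. Within 250 bases before the RefSeq start, Clec5a held 2 PU.1 cores, Clec12a 2, Clec4a1 2 and Mrc1 3, some outside the stretch shown. Clec4a2 held none of the 3 motifs in the 250 bases before its RefSeq start. A match describes the letters and not a bound site.

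Markers of cells known to carry these receptors gave calls in part of the same comparisons. Their counts have to be read beside the share of all tested genes called, which differed between comparisons. When HDM was compared with PBS, 2.32% of all tested genes were called higher and 0.294% lower. For SF-3-030+HDM the shares were 3.43% higher and 6.06% lower relative to HDM. Relative to PBS, 11.8% were higher and 18.1% lower. Of 11 interstitial macrophage markers, 5 rose in HDM against PBS, as did 7 in SF-3-030+HDM against PBS, and their summed level was 603 to 1138 CPM in SF-3-030+HDM, 811 to 998 CPM in HDM and 297 to 400 CPM in PBS. Of 12 conventional dendritic cell markers, 7 rose in HDM against PBS. In SF-3-030+HDM against PBS 4 of the 12 rose, and in SF-3-030+HDM against HDM 0 rose and 1 fell. Sums were 504 to 507, 517 to 578 and 225 to 400 CPM in SF-3-030+HDM, HDM and PBS libraries. Monocyte markers gave 0 edgeR calls of 6 in HDM against PBS, with 2 at an unadjusted p under 0.05. In SF-3-030+HDM against PBS 3 of the 6 rose and 2 fell, and in SF-3-030+HDM against HDM 1 fell. Their sums were 209 to 244 CPM in SF-3-030+HDM, 192 to 223 CPM in HDM and 98.5 to 200 CPM in PBS. Of 9 neutrophil markers, 1 rose and 1 fell in HDM against PBS, and 3 rose in SF-3-030+HDM against HDM. In SF-3-030+HDM against PBS 3 of the 9 rose and 1 fell. Their sums were 293 to 393 CPM in SF-3-030+HDM, 107 to 234 CPM in HDM and 150.2 to 402 CPM in PBS. Of 10 alveolar macrophage markers, 1 rose in HDM against PBS and 4 fell in SF-3-030+HDM against HDM. In SF-3-030+HDM against PBS 2 of the 10 rose and 4 fell. Their sum was 298 to 448 CPM in SF-3-030+HDM, 377 to 556 CPM in HDM and 182 to 388 CPM in PBS. None of these markers was at 0 in a whole group. Their part in the receptor results was not tested.

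Among the uptake receptors, Mrc1 and Clec10a rose in SF-3-030+HDM against PBS, and none was called in the other comparisons. Mrc1 (ENSMUSG00000026712, chr2:14229392-14332057, plus strand) had 124, 113 and 201 CPM in SF-3-030+HDM lungs, 115, 78.7 and 77.8 CPM in HDM lungs and 36.8, 20.9, 63.5 and 53.8 CPM in PBS lungs. All exposed libraries were above all PBS libraries, and the exposed groups overlapped at HDM 1. Mrc1 rose by 1.78 ± 0.36 in SF-3-030+HDM against PBS (edgeR adjusted p = 0.00516), a call kept in all 19 alternatives. Its log2 fold change was 1.08 ± 0.36 in HDM against PBS (edgeR adjusted p = 0.193) and 0.70 ± 0.39 in SF-3-030+HDM against HDM (edgeR adjusted p = 0.263).

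Clec10a and Mgl2 encode receptors for terminal galactose and N-acetylgalactosamine on dendritic cells and macrophages, and their coding sequences are 88.1% identical with a longest shared run of 183 bases. Clec10a (ENSMUSG00000000318, chr11:70156197-70170834, plus strand) had 12.0, 10.5 and 11.4 CPM in SF-3-030+HDM, 9.03, 6.06 and 11.4 CPM in HDM and 6.33, 5.93, 5.21 and 2.96 CPM in PBS lungs. HDM overlapped PBS at one library, and SF-3-030+HDM did not overlap PBS. It rose by 1.18 ± 0.25 in SF-3-030+HDM against PBS (edgeR adjusted p = 0.00663), in all 19 alternatives, and had a log2 fold change of 0.83 ± 0.25 in HDM against PBS (edgeR adjusted p = 0.14). Mgl2 averaged 33.3 ± 13.3 CPM in SF-3-030+HDM, 37.7 ± 10.7 CPM in HDM and 30.2 ± 3.55 CPM in PBS and passed in no comparison. Because the genes are so alike, the split of reads between them is uncertain.

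Mrc2, a collagen uptake receptor of fibroblasts, averaged 126 ± 1.82 CPM in SF-3-030+HDM, 115 ± 17.4 CPM in HDM and 144 ± 46.3 CPM in PBS. Clec4g, known from sinusoidal endothelium of liver and lymph node, averaged 1.57 ± 0.123, 1.22 ± 0.457 and 1.67 ± 0.741 CPM in the same groups. Neither passed in a comparison, and the largest difference of Mrc2 was -0.26 ± 0.19 in HDM against PBS. Clec4g shares 146 bases of exon with Gm16553 on the opposite strand, and the strand of the libraries is not given in the sources used here.

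The Cd209 genes encode the mouse relatives of DC-SIGN, which bind mannose and fucose on pathogens. Cd209d and Cd209e were the 2 members called higher in lungs given the compound with the allergen against HDM. Cd209e (ENSMUSG00000040197, chr8:3847965-3854309, minus strand) had 11.3, 13.2 and 22.6 CPM in SF-3-030+HDM lungs, 1.12, 1.97 and 4.34 CPM in HDM lungs and 0.0517, 1.59, 0.307 and 0.761 CPM in PBS lungs. Cd209d (ENSMUSG00000031495, chr8:3871824-3878555, minus strand) had 7.998, 6.14 and 10.3 CPM in SF-3-030+HDM, 1.63, 2.18 and 2.73 CPM in HDM and 0.891, 1.62, 0.609 and 1.43 CPM in PBS lungs. For both genes the SF-3-030+HDM libraries lay above all others. HDM and PBS overlapped for Cd209e, and for Cd209d the lowest HDM library was level with the highest PBS library.

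Cd209d rose in SF-3-030+HDM against HDM by 1.89 ± 0.39 (edgeR adjusted p = 0.015), which is 3.72-fold, and Cd209e by 2.68 ± 0.77 (edgeR adjusted p = 0.0499), which is 6.41-fold. The call of Cd209e passed in 7 of 19 alternatives and was lost without PBS 4, any HDM library or any SF-3-030+HDM library, with an adjusted p of up to 0.143. That of Cd209d passed in 16, and was lost without HDM 2 or SF-3-030+HDM 3 (edgeR adjusted p up to 0.0634) and without the Y-linked libraries, where the log2 fold change was 2.39 (edgeR adjusted p = 0.0663). Against PBS, Cd209d rose by 2.87 ± 0.37 (edgeR adjusted p = 0.000277) and Cd209e by 4.53 ± 0.76 (edgeR adjusted p = 0.00159), and both calls passed in all 19 alternatives. In HDM against PBS their log2 fold changes of 0.98 ± 0.36 and 1.85 ± 0.72 were not called (edgeR adjusted p = 0.27 and 0.318). The 2 genes neighbour each other on chromosome 8 and their coding sequences are 71.2% identical, with no identical run above 17 bases.

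None of the other 5 Cd209 genes was called. Cd209a, the most abundant of them, averaged 11.5 ± 3.76 CPM in SF-3-030+HDM, 10.8 ± 2.71 CPM in HDM and 9.49 ± 2.07 CPM in PBS, and the 3 groups overlapped. Cd209b, a receptor of marginal zone and peritoneal macrophages, averaged 2.87 ± 1.70, 1.13 ± 0.49 and 1.40 ± 0.288 CPM in the same groups. Cd209c averaged 2.06 ± 1.22, 0.481 ± 0.431 and 0.591 ± 0.272 CPM, and its log2 fold change of 2.10 ± 0.73 in SF-3-030+HDM against HDM was not called (edgeR adjusted p = 0.0861). DESeq2 called both Cd209b and Cd209c higher in SF-3-030+HDM against HDM and against PBS. Cd209f averaged 1.45 ± 0.691, 1.36 ± 0.772 and 2.44 ± 1.46 CPM, and Cd209g 1.75 ± 1.23, 0.652 ± 0.327 and 1.31 ± 0.737 CPM, with groups that overlapped. The 7 Cd209 genes together summed to 34.1 to 58.9 CPM in SF-3-030+HDM, 14.7 to 21.96 CPM in HDM and 15.7 to 17.98 CPM in PBS libraries.

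**Figure D4:**
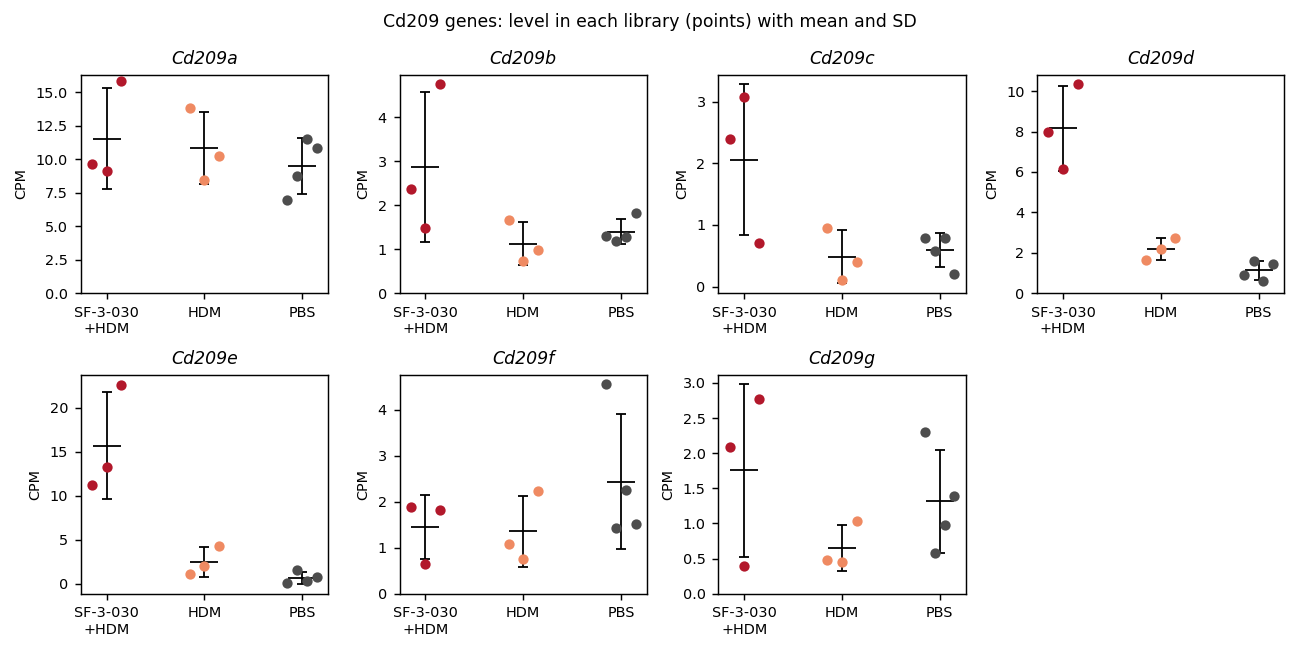
CPM of the 7 Cd209 genes in each library (points), with the mean and SD of each group (SF-3-030+HDM n = 3, HDM n = 3, PBS n = 4). Cd209d (6.14 to 10.3 CPM) and Cd209e (11.3 to 22.6 CPM) are higher in the 3 SF-3-030+HDM libraries than in any other library, whereas Cd209a overlaps between all groups.

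The sequences before the starts of Cd209d and Cd209e are shown as the pair that rose. Those of Cd209f and Cd209g are shown because these genes are near copies, whose counts are uncertain where reads were shared. The source, strand and capitals are as for the sequences above.
Cd209d, chr8:3878500-3878599, minus strand: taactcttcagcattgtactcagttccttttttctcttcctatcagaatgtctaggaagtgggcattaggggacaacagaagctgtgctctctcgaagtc
Cd209e, chr8:3854287-3854386, minus strand: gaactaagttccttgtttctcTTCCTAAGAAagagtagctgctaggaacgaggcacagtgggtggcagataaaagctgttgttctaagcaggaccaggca
Cd209f, chr8:4105765-4105864, minus strand: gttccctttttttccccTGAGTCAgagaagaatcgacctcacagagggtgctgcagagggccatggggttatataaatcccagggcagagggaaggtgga
Cd209g, chr8:4134636-4134735, plus strand: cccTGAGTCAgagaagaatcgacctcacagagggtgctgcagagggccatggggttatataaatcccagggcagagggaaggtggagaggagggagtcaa

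Cd209f and Cd209g lie on opposite strands and carry the same AP-1 site in the same surrounding letters, and their coding sequences are 89.2% identical with a shared run of 178 bases. Cd209e holds a STAT6 site in the stretch shown. Cd209d has none of the 3 motifs in its stretch and 1 PU.1 core further upstream.

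Clec2 genes encode surface lectins that natural killer cell receptors of the Klrb1 family recognise. Clec2d, the ligand of the inhibitory receptor encoded by Klrb1b, was the only member called lower in HDM against PBS. Clec2d (ENSMUSG00000030157, chr6:129180615-129186534, plus strand) had 95.8, 86.0 and 65.8 CPM in SF-3-030+HDM lungs, 58.2, 54.8 and 60.9 CPM in HDM lungs and 129, 79.3, 81.5 and 106 CPM in PBS lungs. The HDM libraries lay below all others, and SF-3-030+HDM overlapped PBS. Clec2d fell by 0.70 ± 0.17 in HDM against PBS (edgeR adjusted p = 0.0495), a call at the edge of the threshold that passed in 2 of 19 alternatives and was lost without any one library other than PBS 2 (edgeR adjusted p up to 0.176). Its log2 fold change was 0.48 ± 0.18 in SF-3-030+HDM against HDM (edgeR adjusted p = 0.0997).

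Clec2i, a ligand of the receptor encoded by Klrb1f, averaged 4.51 ± 1.28 CPM in SF-3-030+HDM, 3.27 ± 2.04 CPM in HDM and 2.29 ± 0.651 CPM in PBS. It was not called, and its log2 fold change of 1.00 ± 0.37 in SF-3-030+HDM against PBS passed in 7 of 19 alternatives. Clec2g was at 1.11 CPM or less in every library. Clec2l averaged 0.526 ± 0.136, 0.371 ± 0.175 and 0.176 ± 0.0468 CPM in the same groups, and its rise of 1.62 ± 0.55 in SF-3-030+HDM against PBS (edgeR adjusted p = 0.0458) passed in 2 of the 18 alternatives that tested it and was lost on leaving out any single library. Coding sequences of Clec2d and Clec2g are 89.9% identical with a longest run of 61 bases.

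Among 9 genes for ligands, partners and receptors of the family, 8 were tested, and Il3 was at 0 in all libraries. In HDM against PBS, edgeR called 0, with 1 at an unadjusted p under 0.05. The comparison of SF-3-030+HDM with HDM gave 2 lower and 0 higher, and the 2 are 25% of those tested, beside 6.06% of all tested genes. Klrb1b had 1.21, 1.42 and 1.65 CPM in SF-3-030+HDM lungs, 8.07, 5.85 and 4.62 CPM in HDM lungs and 4.20, 6.77, 3.72 and 4.28 CPM in PBS lungs. Its level was lower in each SF-3-030+HDM library than in any other, with a log2 fold change of -2.13 ± 0.32 against HDM (edgeR adjusted p = 0.00212). Klrb1c, encoding the activating receptor NK1.1, which antibodies detect in C57BL/6 but not in BALB/c mice, fell by 1.02 ± 0.28 in that comparison (edgeR adjusted p = 0.0445). Klrb1a and Klrb1f rose in SF-3-030+HDM against PBS, where Klrb1b and Klrb1c fell. Each pair is 25% of those tested, beside 11.8% of all tested genes called higher and 18.1% called lower. The strain-linked separation of these libraries described above applies to these genes too, and its part was not tested.

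Vascular and platelet members did not pass in any comparison. Clec14a, an endothelial protein that binds the matrix protein of Mmrn2, averaged 214 ± 8.32 CPM in SF-3-030+HDM, 210 ± 68.1 CPM in HDM and 290 ± 19.9 CPM in PBS, with a log2 fold change of -0.42 ± 0.22 in each exposed group against PBS. The difference between SF-3-030+HDM and PBS passed in 3 of 19 alternatives, upper-quartile scaling among them. Blood vessel endothelial markers summed to 3044 to 3411 CPM in SF-3-030+HDM, 2890 to 3081 CPM in HDM and 3807 to 4411 CPM in PBS libraries. For these markers edgeR called 0 of 9 in HDM against PBS, with 3 at an unadjusted p under 0.05. In SF-3-030+HDM against PBS 2 of 9 fell, a share of 22.2%, near the 18.1% of all tested genes called lower. Clec1a, also endothelial, averaged 90.6 ± 9.80, 64.0 ± 20.3 and 78.7 ± 15.8 CPM in those groups. Clec1b, the podoplanin receptor of platelets, averaged 8.95 ± 2.61 CPM in SF-3-030+HDM, 12.0 ± 0.628 CPM in HDM and 7.75 ± 1.62 CPM in PBS. Its log2 fold change was 0.69 ± 0.20 in HDM against PBS (edgeR adjusted p = 0.12) and -0.46 ± 0.22 in SF-3-030+HDM against HDM (edgeR adjusted p = 0.183). Of 10 platelet markers, 7 fell in SF-3-030+HDM against HDM, 70% beside 6.06% of all tested genes. Their sums were 37.9 to 39.0 CPM in SF-3-030+HDM, 59.5 to 119 CPM in HDM and 56.9 to 110 CPM in PBS libraries.

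Clec9a, a receptor for actin exposed on dead cells and a mark of cross-presenting dendritic cells, averaged 28.2 ± 8.89 CPM in SF-3-030+HDM, 18.4 ± 8.26 CPM in HDM and 15.1 ± 3.70 CPM in PBS. It was not called, with a log2 fold change of 0.89 ± 0.32 in SF-3-030+HDM against PBS (edgeR adjusted p = 0.0568), which passed in 6 of 19 alternatives. Its exons share 184 bases with those of Clec1b on the same strand, so reads there could belong to either gene.

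Of the secreted and other members, Clec11a fell and Clec16a rose. Clec11a (ENSMUSG00000004473, chr7:44302687-44306902, minus strand), a secreted growth factor for bone-forming and blood progenitor cells, had 5.27, 4.42 and 7.75 CPM in SF-3-030+HDM lungs, 13.8, 12.7 and 21.1 CPM in HDM lungs and 20.9, 16.7, 10.5 and 7.71 CPM in PBS lungs. SF-3-030+HDM lay below HDM without overlap and met the lowest PBS library. Clec11a fell by 1.44 ± 0.35 in SF-3-030+HDM against HDM (edgeR adjusted p = 0.0311) and by 1.19 ± 0.33 against PBS (edgeR adjusted p = 0.0213). Leaving out SF-3-030+HDM 1 or SF-3-030+HDM 2 ended both calls, and leaving out HDM 2 or HDM 3 ended the one against HDM (edgeR adjusted p up to 0.120 against HDM and 0.0918 against PBS). Clec3b, a secreted plasminogen-binding protein, averaged 99.5 ± 13.6 CPM in SF-3-030+HDM, 71.2 ± 13.1 CPM in HDM and 100 ± 26.5 CPM in PBS and was not called. Clec16a, which acts in autophagy inside cells, averaged 46.1 ± 3.82, 34.6 ± 5.79 and 32.1 ± 2.10 CPM in the same groups. Its rise of 0.55 ± 0.18 in SF-3-030+HDM against PBS (edgeR adjusted p = 0.0419) passed in 7 of 19 alternatives and was lost when PBS 1, 2 or 4, HDM 1 or 2, or any SF-3-030+HDM library was left out, with an adjusted p of up to 0.162.

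Genes of the signalling path below the receptors were also followed. Of 18 such genes, 4 rose in HDM against PBS and 0 fell: Syk, Fcer1g, Plcg2 and Vav1. The 4 are 22.2% of the list, beside 2.32% of all tested genes. The adaptor gene Fcer1g, which couples Dectin-2 to Syk, had 44.9, 42.9 and 59.8 CPM in SF-3-030+HDM lungs, 71.6, 96.7 and 107 CPM in HDM lungs and 43.2, 45.7, 39.9 and 46.8 CPM in PBS lungs. Like Clec4n, Fcer1g was highest in all 3 HDM libraries. It rose by 1.12 ± 0.21 in HDM against PBS (edgeR adjusted p = 0.0142) and fell by 0.91 ± 0.23 in SF-3-030+HDM against HDM (edgeR adjusted p = 0.0321), where it was the only signalling gene called. Syk had 161, 146 and 149 CPM in SF-3-030+HDM, 143, 129.5 and 111 CPM in HDM and 75.5, 67.9, 79.0 and 50.5 CPM in PBS lungs, and rose by 0.96 ± 0.18 in HDM against PBS (edgeR adjusted p = 0.0156). Of the 18, 8 rose in SF-3-030+HDM against PBS and 0 fell, and the 8 are 44.4%, beside 11.8% of all tested genes. The smallest p belonged to Vav1, Syk, Malt1 and Ptpn6, with log2 fold changes of 1.32, 1.19, 1.86 and 1.00.

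Other genes with a C-type lectin domain gave 3 higher and 1 lower of 30 tested in HDM against PBS and the same numbers in SF-3-030+HDM against HDM. These are 10% and 3.33% of those tested. The shares of all tested genes were 2.32% and 0.294% in HDM against PBS, and 3.43% and 6.06% in SF-3-030+HDM against HDM. Asgr1, a subunit of the asialoglycoprotein receptor, had 0.175, 0.143 and 0.160 CPM in SF-3-030+HDM lungs, 0.694, 1.06 and 0.546 CPM in HDM lungs and 6.74, 7.52, 4.35 and 5.93 CPM in PBS lungs. The 3 groups did not overlap, and the log2 fold change was -2.92 ± 0.32 in HDM against PBS (edgeR adjusted p = 0.00104) and -2.32 ± 0.36 in SF-3-030+HDM against HDM (edgeR adjusted p = 0.00299). The B cell genes Cd72 and Fcer2a moved the other way. Fcer2a, the low-affinity receptor for immunoglobulin E, had 126, 104 and 103 CPM in SF-3-030+HDM, 22.3, 41.5 and 36.8 CPM in HDM and 7.66, 20.3, 9.41 and 11.0 CPM in PBS lungs. B cell markers, which include Fcer2a, summed to 788 to 1054 CPM in SF-3-030+HDM, 381 to 533 CPM in HDM and 166 to 271 CPM in PBS libraries. In SF-3-030+HDM against HDM 5 of 8 B cell markers rose, 62.5% beside 3.43% of all tested genes. Of the 30 tested genes with a C-type lectin domain, 7 (23.3%) rose and 2 (6.67%) fell in SF-3-030+HDM against PBS. The shares of all tested genes there were 11.8% and 18.1%.

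Clec7a, the gene of Dectin-1, a receptor for fungal beta-glucans, was left out of the members by its annotated gene type. It had 183, 139 and 253 CPM in SF-3-030+HDM lungs, 161, 121 and 143 CPM in HDM lungs and 38.3, 24.7, 29.8 and 29.3 CPM in PBS lungs. Exposed libraries were far above PBS in both groups and overlapped each other. It rose by 2.27 ± 0.22 in HDM against PBS (edgeR adjusted p = 0.000566) and by 2.71 ± 0.23 in SF-3-030+HDM against PBS (edgeR adjusted p = 1.52e-05), and its log2 fold change of 0.44 ± 0.23 in SF-3-030+HDM against HDM was not called (edgeR adjusted p = 0.242).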

How the data were processed

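RNA of whole lung was sequenced on Illumina instruments, and reads were processed with STAR 2.5.2b, Trimmomatic 0.36 and the GRCm38 build, per the submitters' processing notes. The tool that counted, the annotation and the strand were not given in the sources used here. The deposited table gives expected counts for 53342 genes, per the file headers, with 34.4% of cells blank and read as 0. It also holds log2 values that the authors normalised, which were not tested. Positions, exon lengths and coding sequences are from GENCODE M21, and promoters from RefSeq. Proteins were not used here, so likeness between members was computed on coding sequences.

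Libraries were grouped by their titles. Expected counts were rounded and fitted in R 4.3.3 with edgeR 4.0.16: filterByExpr, TMM scaling and 1 quasi-likelihood model of the 10 libraries with a term per group. Tests were two-sided, with Benjamini-Hochberg adjustment over 26235 genes and a threshold of 0.05. The steps were tested on simulated data with known changes. CPM use each library's summed expected counts, which ran from 38667118 to 59083942. Reads are not independent molecules, so limits on a count of 0, set at 3 counts, cover counting error only.

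Members were described by role. Those averaging at least 1 CPM in a group were named with values in all groups, as was any called member. Of the lists of signalling genes, ligands and partners, and other C-type lectin domain genes, up to 4 called genes with the smallest p could be named. The genes used to check libraries were named after seeing values. The members, gene lists and tests were chosen with earlier results of these data known. Lists are described by counts and medians only. The alternatives, 19 in all for each member, were DESeq2 1.42.0, upper-quartile and RLE scaling, no minimum count, a minimum of 1 CPM in 3 libraries, separate fits for each pair of groups, a replicate block, leaving out each of the 10 libraries, and, added after the data were seen, leaving out the set with Y-linked expression (HDM 2, HDM 3 and PBS 2) or the set highest in background (HDM 3, PBS 1 and PBS 4).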

Additional observations from a re-analysis of the deposited data

Results flagged for a closer look

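Members averaging at least 1 CPM were checked for a PBS library apart from the other 3. Of 31 members, 2 had one. Clec4n was at 6.95 CPM in PBS 2, against 12.4 to 13.3 CPM in the other PBS libraries. Clec9a was at 9.61 CPM in PBS 1, against 16.3 to 17.6 CPM in the others. Chance flags about 1 in 20 such groups. PBS 2 is a library with Y-linked expression, and PBS 1 has the most background and the lowest depth. The part of these features in the values was not tested.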

How the results depend on the processing

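No log2 fold change of a called member changed sign under any of the alternatives run. The counts that follow are of members alone. The number of all tested genes called can also change with the setting, and the part of this in the member counts was not tested. In HDM against PBS the number of members called higher, 5, became 9 with DESeq2, 1 with the replicate block, 0 without the libraries with Y-linked expression and 2 without those with the most background, and leaving out each library gave 2 to 6. The 1 called lower became 0 with RLE scaling, upper-quartile scaling, no filter, the 1 CPM filter, only the 2 groups compared, the replicate block and without either set of libraries, and 0 to 1 on leaving out each library. In SF-3-030+HDM against HDM the 2 called higher became 1 with RLE scaling, upper-quartile scaling, the 1 CPM filter and the replicate block, 4 with DESeq2, 0 without the Y-linked libraries, and 0 to 2 on leaving out each library. The 2 called lower became 4 with only the 2 groups compared and without the background libraries, 0 with the replicate block, 1 without the Y-linked libraries, and 0 to 3 on leaving out each library. In SF-3-030+HDM against PBS the 11 called higher became 7 with upper-quartile scaling and the replicate block, 16 with DESeq2, 13 with no filter, 12 with only the 2 groups compared and 7 to 11 on leaving out each library, and the 1 called lower became 2 with upper-quartile scaling, DESeq2, no filter and only the 2 groups compared, 3 without the background libraries and 0 to 1 on leaving out each library. Among fits leaving out 1 library, the lowest numbers of members called higher came without HDM 1 or HDM 2 (2 in HDM against PBS), without HDM 2 or SF-3-030+HDM 3 (0 in SF-3-030+HDM against HDM) and without PBS 4 or SF-3-030+HDM 1 (7 in SF-3-030+HDM against PBS). The cause of these shifts was not tested, and fits that leave out libraries also have fewer of them. Over 9 pairs of libraries with the same replicate number, deviations from the group means correlated at -0.56 to 0.26. With 3 or 4 libraries in a group, such correlations cannot settle whether the numbers pair the samples. Upper-quartile scaling moved the median of all tested genes to -0.15, -0.19 and -0.31 in the 3 comparisons, from -0.09, -0.03 and -0.105. Members under 1 CPM are limited by depth.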
